A study of Mus musculus with 81 samples.

Results

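Oxidative phosphorylation is the respiratory chain and ATP synthase of the inner mitochondrial membrane. Its nuclear genes were followed here through sorted mouse microglia, the resident macrophages of the brain, during demyelination. The genes were taken by name: symbols beginning with Ndufa, Ndufb, Ndufc, Ndufs, Ndufv, Uqcr, Cox4, Cox5, Cox6, Cox7, Cox8 or Atp5, plus Sdha, Sdhb, Sdhc, Sdhd and Cyc1, without numbered pseudogenes. This gave 96 of the 25124 genes in the deposited count tables. They comprise 36 subunits of complex I, 4 of complex II, 9 of complex III, 11 common subunits of complex IV and 17 of complex V (ATP synthase). The rule also took in 8 tissue-restricted alternate subunits of complex IV, the supercomplex factor Cox7a2l, 8 complex I assembly factors (Ndufaf1 to Ndufaf8) and 2 gene copies, Ndufa11b and Ndufb4c. The subunits that mitochondrial DNA encodes are outside the rule.

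The study sequenced polyadenylated RNA from 81 libraries in 28 groups, all titled male and adult, on a C57BL/6 background. The diet of treated mice held 0.2% cuprizone, which chelates copper, kills oligodendrocytes and so removes myelin. Mice were WT or Trem2KO (4 weeks of cuprizone), Cx3cr1CreERT2/WT (here Cre) or Cx3cr1CreERT2/WT::Mef2afl/fl (Mef2aKO, 5 weeks), or Cre and Cx3cr1CreERT2/WT::Egr2fl/fl (Egr2KO, 5 or 6 weeks). Trem2 is a lipid-sensing receptor, and Mef2a and Egr2 are transcription factors. The Cre driver is inducible and is placed at the Cx3cr1 locus, which microglia and related macrophages express. The labels name no inducing drug, and Cre libraries carry the same driver as the libraries compared with them.

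Every genotype also had regular-diet (baseline) libraries, sorted as low for CD44, CD45 and CD11b and not by the gates used on cuprizone. At 4 and 6 weeks cells were split by the surface proteins CD229 and CD11c into CD229-CD11c- (written CD229-), CD229+CD11c- (CD229+) and CD229+CD11c+ (CD11c+) cells. Trem2KO had no CD11c+ group. The 5-week sort added the lectin receptor Clec7a, a surface marker of activation, giving cells with none of the 3 proteins (Clec7a-), Clec7a alone (Clec7a+), Clec7a and CD229 (double positive) or all 3 (triple positive). Mef2aKO baseline cells were also split by CD229, and ungated Cre and Egr2KO cells were taken at 5 weeks. Most groups had 3 libraries. Trem2KO CD229- and CD229+ cells had 4 each, while Mef2aKO Clec7a-, Mef2aKO baseline CD229+, Egr2KO baseline and both ungated groups had 2. A library is a pool of 2 to 6 brains, so p-values measure the spread between pools.

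Complex I takes electrons from NADH and complex II from succinate, and both pass them through ubiquinone to complex III, cytochrome c and complex IV, where oxygen is reduced. Complexes I, III and IV pump protons, and complex V uses the gradient to make ATP. The complexes other than complex II have a small catalytic core and accessory subunits that stabilise it. In microglia the balance between oxidative phosphorylation and glycolysis is known to shift with activation.

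Promoters of 75 of the 96 genes were found in RefSeq sequence for the GRCm38.p6 build, 250 bases before to 50 after each gene's start. Of these, 10 (13.3%) held the core of the NRF1 motif, CGCATGCG, against 1.91% of all 27025 promoters of the same length, with both strands searched. The ETS motif bound by GABPA, CCGGAAG, was in 18 (24%) against 9.12%. The ERR motif AAGGTCA was in 8 (10.7%) against 4.66%, and the YY1 motif AAGATGG was in 10 (13.3%) against 6.48%. The MEF2 motif was in 0 of the 75 and in 0.566% of all promoters, which says only that its letters are not in these windows. None of these motifs overlapped another in the windows printed here, and a match is a description of letters, not a binding site. The windows below are of members picked by hand and do not stand for the set. They are written 5′ to 3′ on the gene's strand, with matches to the NRF1, ETS and ERR motifs on either strand in capitals. Ndufs3 (complex I core) lies at chr2:90904672-90904971 on the minus strand, Uqcr11 (complex III) at chr10:80406772-80407071 minus, Cox6a1 (complex IV) at chr5:115348909-115349208 minus, Atp5k (complex V) at chr5:108434350-108434649 minus and the assembly factor gene Ndufaf7 at chr17:78936885-78937184 plus.
Ndufs3: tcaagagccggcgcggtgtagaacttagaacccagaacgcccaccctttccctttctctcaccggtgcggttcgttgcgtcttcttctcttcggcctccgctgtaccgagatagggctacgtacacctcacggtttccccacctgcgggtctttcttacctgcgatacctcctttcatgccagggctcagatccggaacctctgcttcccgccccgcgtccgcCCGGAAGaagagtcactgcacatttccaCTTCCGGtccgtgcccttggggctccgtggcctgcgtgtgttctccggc
Uqcr11: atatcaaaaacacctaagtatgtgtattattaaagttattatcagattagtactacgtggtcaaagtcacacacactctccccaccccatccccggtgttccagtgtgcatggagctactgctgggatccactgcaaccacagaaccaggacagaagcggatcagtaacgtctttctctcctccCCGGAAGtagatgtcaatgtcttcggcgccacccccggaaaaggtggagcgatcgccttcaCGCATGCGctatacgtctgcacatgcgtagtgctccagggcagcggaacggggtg
Cox6a1: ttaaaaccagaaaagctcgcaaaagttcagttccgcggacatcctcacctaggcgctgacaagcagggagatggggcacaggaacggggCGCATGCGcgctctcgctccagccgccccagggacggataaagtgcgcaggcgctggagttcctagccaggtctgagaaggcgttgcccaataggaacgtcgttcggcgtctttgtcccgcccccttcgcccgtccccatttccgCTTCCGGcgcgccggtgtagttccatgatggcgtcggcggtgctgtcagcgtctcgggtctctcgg
Atp5k: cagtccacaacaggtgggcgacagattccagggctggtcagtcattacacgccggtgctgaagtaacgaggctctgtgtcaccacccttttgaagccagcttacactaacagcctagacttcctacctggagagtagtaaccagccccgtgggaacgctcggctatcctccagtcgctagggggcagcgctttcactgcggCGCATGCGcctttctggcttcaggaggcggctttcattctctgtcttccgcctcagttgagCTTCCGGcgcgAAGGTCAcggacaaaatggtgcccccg
Ndufaf7: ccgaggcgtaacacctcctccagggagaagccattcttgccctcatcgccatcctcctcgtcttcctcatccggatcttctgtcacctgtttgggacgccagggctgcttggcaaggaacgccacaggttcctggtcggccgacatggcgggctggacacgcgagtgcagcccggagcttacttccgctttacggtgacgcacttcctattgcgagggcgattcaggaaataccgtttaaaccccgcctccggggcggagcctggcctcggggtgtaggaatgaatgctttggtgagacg
In these windows Ndufs3 held 2 ETS matches, Uqcr11 and Cox6a1 each held an NRF1 core and an ETS match, and Atp5k held NRF1, ETS and ERR matches. Of the 75 windows 38 (50.7%) held none of the NRF1, ETS, YY1 and ERR motifs, among them that of Ndufaf7 and those of Ndufa1, Ndufb5, Cox7b and Atp5o, which rose in all 6 gate steps described below.

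Total counts ran from 4387075 to 13972985 per library. Microglial markers (7 genes) summed to 4872 to 13252 CPM (read counts scaled to a fixed library total), and no other marker list passed 345 CPM. Between WT baseline, CD229- and CD229+ libraries the microglial sum ran from 10863 to 11295, 10336 to 12086 and 7762 to 9237 CPM, and the astrocyte sum (5 genes, all detected) from 193 to 217, 139 to 144 and 85.5 to 94.4. The endothelial sum (5 genes) was 74.6 to 87.5 CPM at WT baseline and 300 to 324 in CD229+ cells, while Cldn5, a defining gene of that type, was at 0 to 0.246 CPM in every library. Within that sum Pecam1 was at 56.2 to 66.6 CPM at WT baseline and 3.29 to 5.64 in CD229+ cells, and Flt1 at 0.768 to 0.966 and 259 to 279. At every CD229 and Clec7a gate on cuprizone Flt1 was higher and Pecam1 lower in the positive cells. The genes of the endothelial sum therefore do not move together. The part of these shifts in the results was not tested, and in bulk samples fewer cells of a type and less RNA per cell cannot be told apart. Trem2 itself had 88.4 to 166 CPM in the 11 Trem2KO libraries and 346 to 713 in the 12 WT libraries. Mef2a had 536 to 925 CPM in the 14 Mef2aKO and 484 to 1066 in the 15 Cre libraries and differed in no gate, so gene counts do not check that deletion. Egr2 passed the test in the ungated cells alone, where it was lower in Egr2KO (log2 fold change -1.61, adjusted p = 4.11e-05). Gate genes also differed across steps named for another marker. Ly9, which encodes CD229, had means of 100 CPM in Cre Clec7a- and 39.6 in Cre Clec7a+ cells. In Mef2aKO its means were 90.7 and 26.7 CPM. Clec7a had means of 258 CPM in WT CD229- and 618 in WT CD229+ cells. The part of these genes in the steps below was not tested.

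Most subunit genes were well expressed before cuprizone. Per kilobase of transcript, the scale on which genes are compared, WT baseline microglia had a median of 42.4 CPM per kb for complex V subunits, 47 for complex II, 33.2 for complex III, 31.4 for complex IV and 23.1 for complex I. The highest of 95 members were the catalytic ATP synthase subunits Atp5b (95.7 ± 4.92, mean ± SD, n = 3) and Atp5a1 (83.9 ± 4.53). The complex IV subunits Cox8a (72.3) and Cox6a1 (71.6) came next. The assembly factors had a median of 6.87, and the alternate complex IV subunits a median of 0.0611. Of those alternates, Cox4i2, Cox7a1, Cox7b2, Cox8b and Cox8c had too few reads to be tested in any experiment, as did Ndufa4l2 and both gene copies. Cox7b2 and Cox8c had no reads at all, and Cox4i2 had 7 to 74 reads summed over an experiment. Tests therefore covered 87 members at 4 weeks and up to 88 elsewhere. A change below is a log2 fold change ± SE from edgeR's quasi-likelihood test, called where the Benjamini-Hochberg adjusted p over all genes was under 0.05. Shares of all genes given below are at that threshold. They are no background for counts at an unadjusted p, for which no share of all genes was taken.

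In WT mice at 4 weeks the subunit genes had a higher summed level in each gate up to CD229+ cells and a lower one again in CD11c+ cells. Summed over the 5 complexes it was 2559 ± 207 CPM at baseline, 3216 ± 169 in CD229- cells, 4508 ± 84.4 in CD229+ cells and 4048 ± 261 in CD11c+ cells (n = 3 each). All complexes followed this order of means. Complex IV went from 237 ± 19.8 to 348 ± 28.3, 571 ± 19 and 492 ± 36 CPM, and complex I from 874 ± 101 to 1078 ± 58.5, 1511 ± 17.1 and 1328 ± 95.4. Complex II had means of 318, 347, 412 and 406 CPM. These 4-week sums leave out Cox4i1, which the joined tables do not hold.

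**Figure D1:**
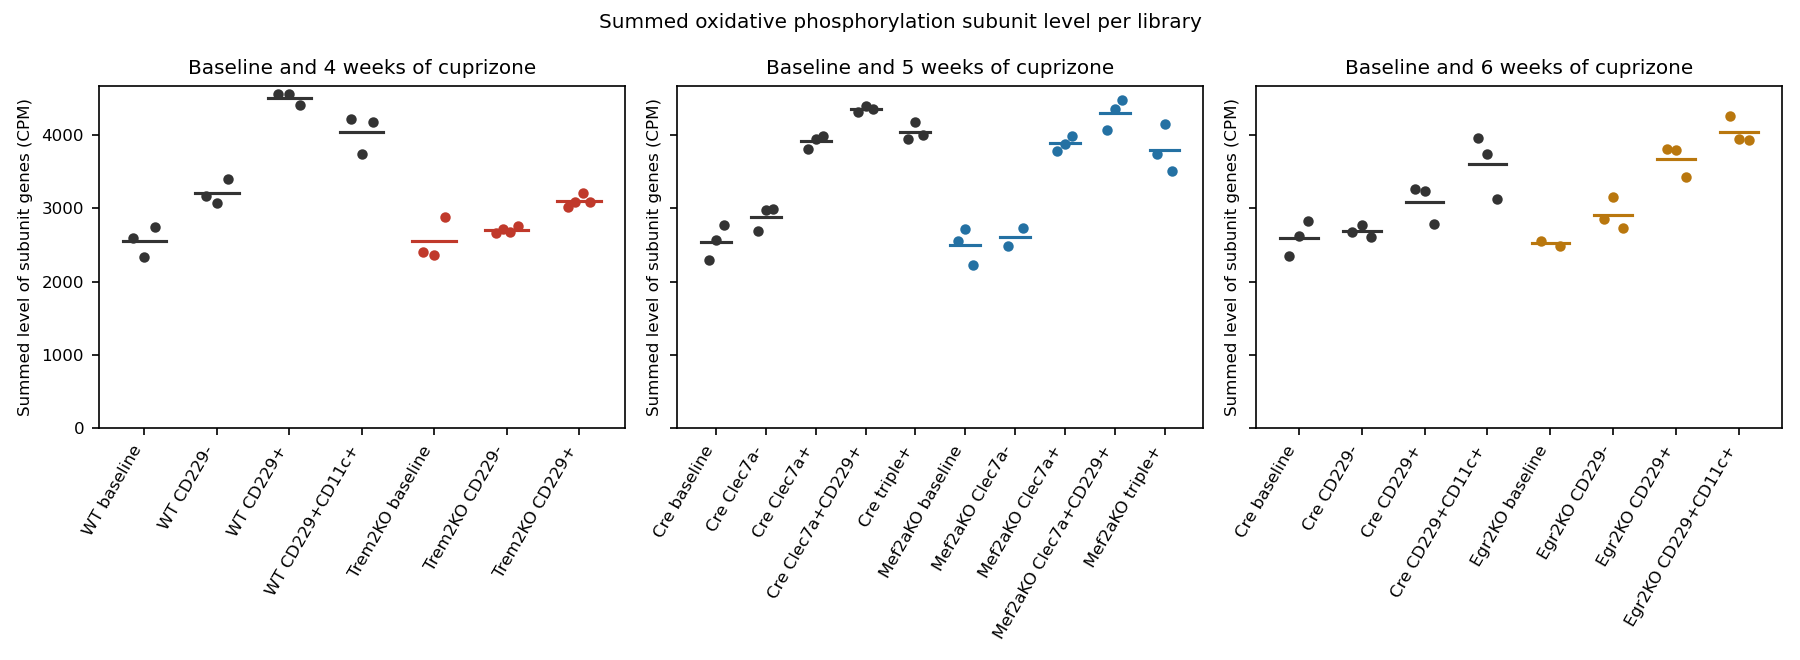
Summed level of the subunit genes of the 5 complexes in CPM (y axis) for every library (points), by genotype, diet and gate (x axis), with group means as horizontal lines. WT CD229+ libraries lie near 4508 CPM and Trem2KO CD229+ libraries near 3105, and the baseline groups have means of 2504 to 2603 CPM.

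From WT baseline to CD229- cells, a step that joins diet and gate because baseline cells were not gated, 54 of 87 members rose and 1 fell, with a median of 0.40. Of all 12647 genes tested, 18.8% rose and 11.7% fell in that step. By complex, 19 of 36 complex I genes rose, 1 of 4 of complex II, 6 of 9 of complex III, 10 of 10 of complex IV and 16 of 17 of complex V. Ndufa1, a small membrane subunit of complex I, gave 7.68, 4.39 and 8.06 CPM at baseline and 17.9, 14.45 and 22 in CD229- cells. The groups did not overlap, and the fold change was 1.44 ± 0.19 (adjusted p = 1.09e-06). Atp5mpl, a small ATP synthase subunit, rose by 0.90 ± 0.13 (adjusted p = 5.73e-06). The complex II gene that passed was Sdhb, its iron-sulfur protein, at 0.25 ± 0.08 (adjusted p = 0.0225). Sdha, the flavoprotein that oxidises succinate, had 0.11, and Ndufs1, the large iron-sulfur core subunit of complex I, 0.06; neither passed. The member that fell was Ndufaf4, an assembly factor (16.9 ± 1.66 against 22.6 ± 2.03 CPM, -0.42 ± 0.13, adjusted p = 0.0171). Without WT CD229- replicate 3 the count of members past the threshold was 34 and not 55, and without WT baseline replicate 2 it was 35.

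The split by CD229 within cuprizone-fed WT mice gave the broadest rise at 4 weeks. Of 87 members 68 rose and 1 fell (median 0.58), against 24.6% of all genes that rose and 24.2% that fell. All 76 tested subunits of the 5 complexes had a positive fold change. The medians were 0.72 for complex IV (10 of 10 rose), 0.64 for complex V (16 of 17), 0.58 for complex I (29 of 36), 0.52 for complex III (8 of 9) and 0.34 for complex II (3 of 4), against a median between -0.02 and 0.03 over all genes in every comparison.

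**Figure D2:**
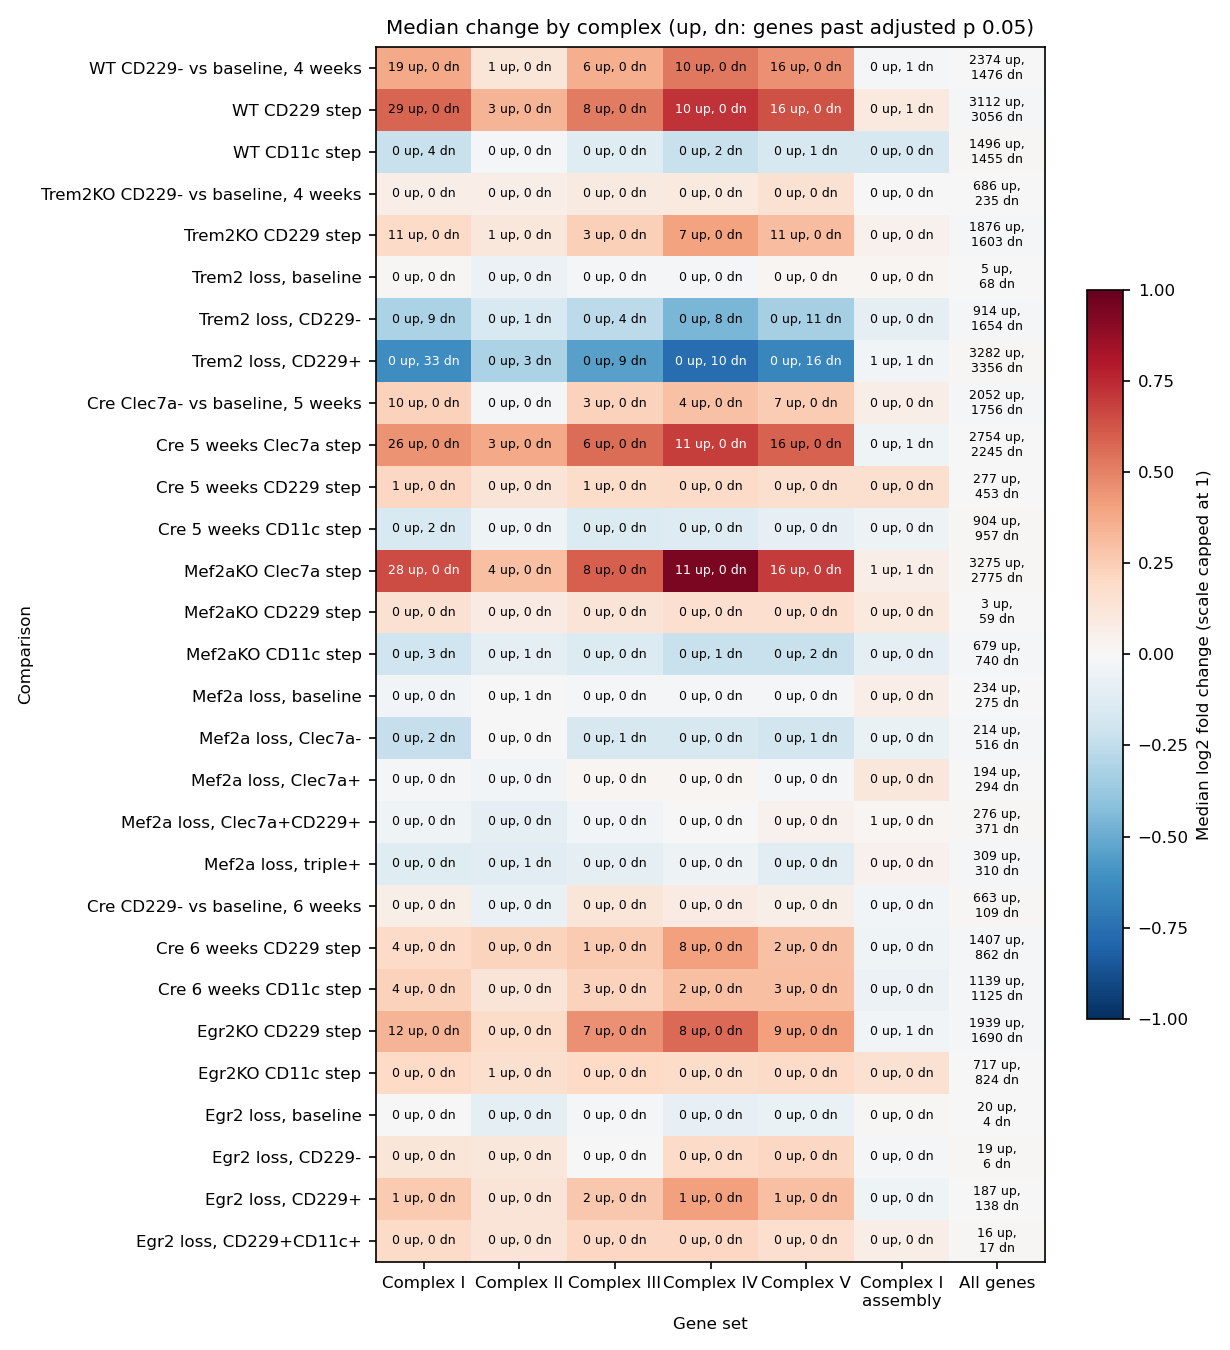
Median log2 fold change of the tested subunits of each complex (columns) in each comparison (rows), as colour, with the numbers past the threshold that rose (up) and fell (dn) in each cell, assembly factors beside the complexes and all genes tested in the last column. The WT CD229 step runs from 0.34 in complex II to 0.72 in complex IV, and the Trem2KO against WT row of CD229+ cells from -0.32 to -0.76.

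In complex I the largest rise in the WT CD229 step was again that of Ndufa1. Its CD229+ libraries had 44.3, 45.3 and 46 CPM, about the same value in each and all above the CD229- libraries (1.32 ± 0.16, adjusted p = 1.85e-07). Ndufb2 (1.04 ± 0.21) and Ndufc1 (0.87 ± 0.17), accessory subunits of the membrane arm, and Ndufs6 (0.85 ± 0.20), an accessory subunit of the matrix arm, rose as well. The core was less moved: Ndufs1 had 65.4, 64.8 and 74 CPM in CD229- and 67.5, 75.8 and 70.9 in CD229+ cells. Those groups overlapped (0.07 ± 0.07, adjusted p = 0.459), and Ndufv1, the NADH-binding subunit, had 0.18 ± 0.10 (adjusted p = 0.143). Of the 7 core subunits 4 rose (median 0.25), and of the 29 accessory subunits 25 rose (median 0.66). The split into core and accessory subunits was made after values were seen.

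In complex II, Sdhc, a membrane anchor, rose from 64.8 ± 3.06 to 87.9 ± 3.38 CPM (0.44 ± 0.09, adjusted p = 0.000174). Sdhb had 49, 49.3 and 56.3 CPM in CD229- and 65.1, 71.5 and 65.6 in CD229+ cells, with no overlap (0.38 ± 0.08, adjusted p = 0.000322). Sdha did not pass (184 ± 4.09 against 172 ± 1.87 CPM, 0.09 ± 0.05, adjusted p = 0.167).

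In complex III the largest rises were those of small subunits. Uqcrq, bound to cytochrome b, rose from 32.7 ± 5.42 to 58.5 ± 2.61 CPM (0.84 ± 0.16, adjusted p = 9.1e-05). Uqcrh, the hinge protein beside cytochrome c1, had 39.15, 33.2 and 42.3 CPM in CD229- and 65.1, 66.7 and 60.9 in CD229+ cells (0.75 ± 0.12, adjusted p = 7.57e-06), again without overlap. The Rieske iron-sulfur protein Uqcrfs1 rose by 0.51 ± 0.10 and cytochrome c1 (Cyc1) by 0.21 ± 0.08. The large core protein Uqcrc1 did not pass (0.15 ± 0.08, adjusted p = 0.148).

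Complex IV, which reduces oxygen, was the complex in which every tested common subunit rose. Cox6a1 had 68.1, 56.4 and 71.5 CPM in CD229- cells and 116, 118 and 101 in CD229+ cells, a separation larger than the spread within either group (0.77 ± 0.11, adjusted p = 8.69e-07). Cox6b1, which bridges the monomers of the complex IV dimer, rose by 0.74 ± 0.10 (adjusted p = 5.06e-07), Cox5a by 0.71 ± 0.11 and Cox8a by 0.70 ± 0.11. Cox4i1, the main regulatory subunit, is outside the joined tables; in the WT table alone it rose by 0.78 in this step (adjusted p = 6.38e-06). The supercomplex factor Cox7a2l rose by 0.74 ± 0.08 (adjusted p = 2.29e-08).

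In complex V the catalytic subunits had smaller fold changes than the small ones. Atp5a1 had 237, 232 and 249 CPM in CD229- and 314, 312 and 294 in CD229+ cells, with no overlap and a change of 0.36 ± 0.06. Atp5b rose by 0.38 ± 0.07 and Atp5c1, the central stalk, by 0.51 ± 0.06 (adjusted p = 2.03e-07). Atp5mpl rose by 0.88 ± 0.12. The complex V gene that did not pass was Atp5l, at 0.11 to 1.5 CPM over all libraries.

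At the next gate the members' median fold change was negative at 4 weeks. From WT CD229+ to CD11c+ cells 0 of 87 members rose and 8 fell (median -0.18), against 11.8% of all genes that rose and 11.5% that fell. The share of members that fell is near that background. Those that fell were Ndufa1 (-0.57 ± 0.16), Ndufa9, Ndufab1, Ndufv3, Cox6a1 (-0.39 ± 0.10), Cox7b, Atp5a1 (-0.20 ± 0.06) and Cox6a2. Ndufa1 had 33, 27 and 31.7 CPM in CD11c+ cells, below every CD229+ library and above every CD229- library. The count was 1 without CD11c+ replicate 2, and 3 and 5 without CD229+ replicates 1 and 2. Sdhb (69.6, 69.1 and 73.8 CPM) and Uqcrh (74.3, 60.1 and 66.7) overlapped the CD229+ libraries and did not pass.

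Trem2KO microglia had lower levels of the subunit genes than WT on cuprizone, most of all in CD229+ cells. At baseline 0 of 87 members passed with edgeR and 0 with DESeq2, against 0.0395% of all genes that rose and 0.538% that fell. At an unadjusted p under 0.05 there were 3 members, of which 1 was positive. In CD229- cells 35 members fell and 0 rose (median -0.32; 13.1% of all genes fell and 7.23% rose). In CD229+ cells, in a comparison that shares its WT libraries with the WT steps above, 74 fell and 1 rose (median -0.64; 26.5% fell and 26% rose). The count in CD229- cells was 16 without WT CD229- replicate 3, and in CD229+ cells it was 73 to 75 with any 1 library left out. In CD229- cells the border macrophage marker sum was 13.5 to 24 CPM in Trem2KO and 47.9 to 143 in WT, the astrocyte sum 191 to 206 and 139 to 144, and the endothelial sum 74.7 to 86.2 and 108 to 137. In CD229+ cells the astrocyte marker sum was 191 to 209 CPM in Trem2KO and 85.5 to 94.4 in WT, and the endothelial sum 62 to 70.4 and 300 to 324. Within the endothelial sum Flt1 was at 2.47 to 4.42 CPM in Trem2KO and 259 to 279 in WT. Pecam1 (16.1 to 21.8 and 3.29 to 5.64) and Cdh5 (3.32 to 6.05 and 1.88 to 2.32) were higher in Trem2KO. Kdr ranges overlapped (35.3 to 44 and 28 to 40.1), and Cldn5 was at 0 in both. The part of these markers in either result was not tested.

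In CD229+ cells lacking Trem2 all complexes were lower: 33 of 36 genes of complex I fell (median -0.62), 3 of 4 of complex II (-0.32), 9 of 9 of complex III (-0.54), 10 of 10 of complex IV (-0.76) and 16 of 17 of complex V (-0.65). Ndufa1 had 18.3, 16, 19.8 and 14.75 CPM, lower than all WT CD229+ libraries (-1.39 ± 0.15, adjusted p = 1.5e-08) and within the range of the WT CD229- libraries. Cox6a1 had 58.6, 63.1, 67 and 61.5 CPM (-0.84 ± 0.10, adjusted p = 5.54e-08), also lower than all WT CD229+ libraries and inside the WT CD229- range. Sdhb, at 46.5, 39.9, 41.9 and 41.9 CPM, lay below every WT library on cuprizone (-0.66 ± 0.08, adjusted p = 6.03e-08). Uqcrq fell (-1.15 ± 0.15, adjusted p = 3.69e-07), as did Atp5g3, which encodes the c-ring subunit through which protons pass (-0.76 ± 0.09, adjusted p = 6.7e-08). Ndufs1 (-0.03) and Sdha (-0.09) did not pass. The member that rose was Ndufaf7, a complex I assembly factor (32.6 ± 2.43 against 23.9 ± 1.2 CPM, 0.45 ± 0.10, adjusted p = 0.000617).

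Trem2KO microglia still raised part of the set across the gate. From Trem2KO baseline to CD229- cells 1 member rose, Cox7a2l (0.41 ± 0.08, adjusted p = 0.0013), and 0 fell, with a median of 0.08, against 5.42% of all genes that rose and 1.86% that fell; without Trem2KO baseline replicate 3 the count was 8. From CD229- to CD229+ cells 35 rose and 0 fell (median 0.26; 14.8% of all genes rose and 12.7% fell). The border macrophage sum was 13.5 to 24 CPM in the former and 49.7 to 71.1 in the latter, and its part in the result was not tested. By complex 7 of 10 genes of complex IV rose, 11 of 17 of complex V, 11 of 36 of complex I, 3 of 9 of complex III and 1 of 4 of complex II. Ndufa1 rose by 0.82 ± 0.16 (adjusted p = 0.000251) there and Uqcrh by 0.69 ± 0.11. The 35 genes are all among the 68 that rose in WT (51.5% of those), and the steps share no library. The overlap over all genes was not taken, so this one cannot be read as particular to the set.

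The difference between these steps was tested directly. Over the 87 members the Trem2KO step was smaller than the WT step by a median of 0.29 on the log2 scale, and 5 members passed, each with a lower step in Trem2KO. Of all genes 5.77% had a lower step, so 5 of 87 is near that share, and 9.02% had a higher one, as no member did. At an unadjusted p under 0.05 there were 37 members, of which 0 were positive. With other scalings and tools the count of 5 moved, as listed in the closing section. They were Sdhb (-0.46 ± 0.11, adjusted p = 0.00517), Ndufa9 (-0.38 ± 0.10, adjusted p = 0.00831), Atp5c1 (-0.32 ± 0.08, adjusted p = 0.00913), Ndufa7 (-0.49 ± 0.15, adjusted p = 0.03) and Atp5a1 (-0.24 ± 0.08, adjusted p = 0.0317). Ndufa1 had -0.50 ± 0.23 (adjusted p = 0.152). The count was 2 without WT CD229+ replicate 1, 3 without WT CD229- replicate 2 or Trem2KO CD229- replicate 1, 8 without WT CD229+ replicate 3 and 12 without WT CD229- replicate 3.

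**Figure D3:**
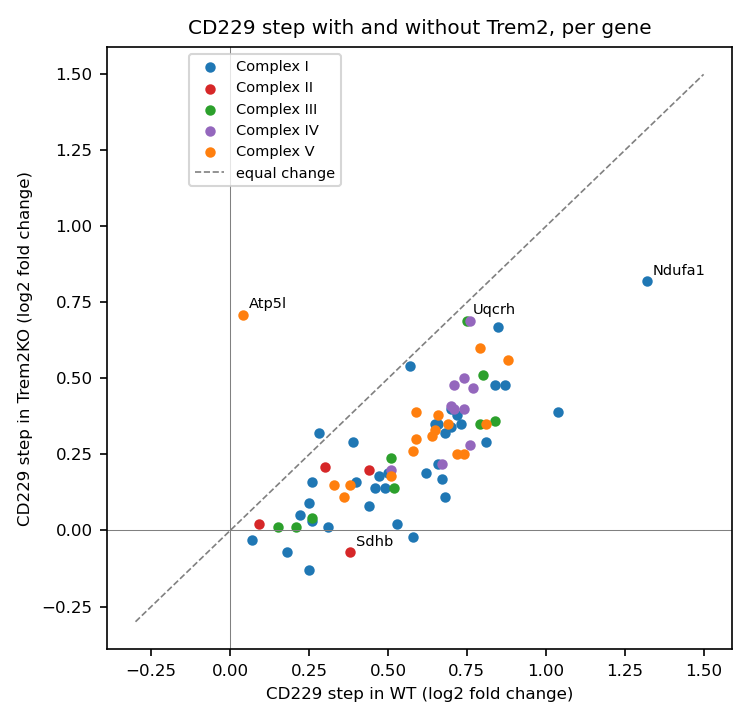
Log2 fold change from CD229- to CD229+ cells in WT (x axis) and in Trem2KO (y axis) for each tested subunit (points, coloured by complex; the 5 complexes only), with the line of equal change. Most points lie below the line, and Sdhb, at 0.38 in WT and -0.07 in Trem2KO, is among the 5 genes for which the difference passed.

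At 5 weeks the largest step came with Clec7a. In Cre mice the summed level was 2547 ± 243 CPM at baseline, 2889 ± 166 in Clec7a- cells, 3913 ± 90.2 in Clec7a+ cells, 4355 ± 43.1 in double-positive and 4044 ± 124 in triple-positive cells. From baseline to Clec7a- cells 26 of 88 members rose and 0 fell (median 0.24; 15.5% of all genes rose and 13.3% fell). This count was 8 without Cre baseline replicate 1, and 12 and 15 without Clec7a- replicates 2 and 3. From Clec7a- to Clec7a+ cells 64 rose and 1 fell (median 0.53; 20.9% rose and 17% fell), including 11 of 11 subunits of complex IV and 16 of 17 of complex V. Across that step the astrocyte marker sum was 132 to 162 and then 100 to 108 CPM, the endothelial sum 94 to 105 and then 206 to 233, and the border macrophage sum 13.1 to 24.5 and then 63 to 134; their part was not tested.

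Among the 64, Cox4i1 rose from 60.7 ± 5.58 to 107 ± 4.64 CPM (0.81 ± 0.13, adjusted p = 3.85e-06). Cox6a1 had 49.95, 52.4 and 51.95 CPM in Clec7a- and 82, 89.9 and 90.1 in Clec7a+ cells, groups far apart relative to their spread (0.76 ± 0.08, adjusted p = 3.86e-09). Ndufa1 rose by 1.41 ± 0.19 (adjusted p = 2.52e-07), Sdhc by 0.43 ± 0.07, Uqcrh by 0.68 ± 0.11 and Atp5o, a subunit of the peripheral stalk of ATP synthase, by 0.59 ± 0.09. Ndufaf7 was the gene that fell (-0.26 ± 0.09, adjusted p = 0.0299). Of the 68 genes that rose with CD229 at 4 weeks, 63 (92.6%) rose here, which is 98.4% of the 64. These steps share no library. The same overlap over all genes was not taken, so it cannot be read as particular to the set.

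Few members passed at the later gates. From Clec7a+ to double-positive Cre cells 2 members rose, Ndufa10 (0.43 ± 0.09, adjusted p = 0.0025) and Uqcr10 (0.39 ± 0.11, adjusted p = 0.0283), and 0 fell (median 0.18; 2.1% of all genes rose and 3.43% fell). From double- to triple-positive cells 0 rose and 3 fell (median -0.12; 6.85% rose and 7.25% fell): Ndufa9 (-0.30 ± 0.07, adjusted p = 0.00512), Ndufa10 (-0.31 ± 0.09, adjusted p = 0.0153) and Cox6a2. Ndufa9 and Ndufa10 are accessory subunits of complex I, the former of its matrix arm. The count in the first of these steps was 1 without Clec7a+ replicate 2 or double-positive replicate 2.

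The libraries labelled Mef2aKO climbed the same gates. Their summed level was 2504 ± 252 CPM at baseline, 2611 ± 172 (n = 2) in Clec7a-, 3886 ± 99.9 in Clec7a+, 4302 ± 205 in double-positive and 3802 ± 327 in triple-positive cells. In the Clec7a step 70 of 88 members rose and 1 fell (median 0.63; 24.8% of all genes rose and 21% fell). Across it the endothelial sum was 67.1 to 68 and then 162 to 193 CPM, the astrocyte sum 141 to 175 and then 97.1 to 119, and the border macrophage sum 7.37 to 10.2 and then 13.7 to 23.2; their part was not tested. Cox6a1 had 38.8 and 46.6 CPM in Clec7a- and 89, 90.3 and 96.3 in Clec7a+ cells (1.10 ± 0.10, adjusted p = 2.79e-11). Ndufb2 rose from 4.97 ± 0.942 to 14.3 ± 1 CPM (1.52 ± 0.18, adjusted p = 1.79e-08), and Atp5e, the epsilon subunit of ATP synthase, by 1.33 ± 0.17. Whether this step differs from that of Cre cells was not tested. In the CD229 step 0 members passed with edgeR, 19 at an unadjusted p under 0.05 (18 positive) and 0 with DESeq2. At the adjusted threshold 0.0227% of all genes rose and 0.447% fell.

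From double- to triple-positive Mef2aKO cells 0 rose and 7 fell (median -0.19; 5.14% of all genes rose and 5.6% fell). They were Ndufa3, Ndufa8, Ndufc1 (-0.45 ± 0.14), Sdhc, Cox6a1 (-0.34 ± 0.08), Atp5f1 and Atp5g3. That count was 20 without triple-positive replicate 2 and 0 to 3 without any other of the 6 libraries. Between CD229+ and CD229- Mef2aKO baseline cells 0 members passed with edgeR, 0 at an unadjusted p under 0.05 and 0 with DESeq2 (0.135% of all genes rose and 0.0158% fell).

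Direct comparison of Mef2aKO with Cre cells moved few members. At baseline 1 fell and 0 rose (2.08% and 1.77% of all genes), Sdhc, at 50.03, 51.6 and 48.8 against 62.3, 60.9 and 57.3 CPM, with no overlap (-0.26 ± 0.07, adjusted p = 0.0263). In Clec7a- cells 5 fell and 0 rose (3.91% and 1.62%), among them Cox6a2, Atp5md (-0.75 ± 0.20), Ndufb2 (-0.67 ± 0.18) and Uqcr10 (-0.51 ± 0.14), with a count of 1 without Cre Clec7a- replicate 3 or Mef2aKO replicate 1 and of 2 without Cre replicate 2. In Clec7a+ cells 1 fell, Cox6a2, and 0 rose (2.23% and 1.47%). In double-positive cells Cox6a2 fell and Ndufaf7 rose (0.35 ± 0.10, adjusted p = 0.0264), against 2.81% of all genes that fell and 2.09% that rose, and 1 of the calls was lost when any of 4 libraries was left out (Cre replicates 1 and 3, Mef2aKO replicates 2 and 3). In triple-positive cells 2 fell and 0 rose (2.35% and 2.34%), Cox6a2 and Sdhc, the latter at 60.9, 63.8 and 61 against 76.4, 81.5 and 76.5 CPM (-0.34 ± 0.07, adjusted p = 0.00171). The baseline call was lost without Cre replicate 1 or 2 or Mef2aKO replicate 1 or 3, and the triple-positive count was 1 when any library but Mef2aKO replicate 1 was left out.

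At 6 weeks members rose at both the CD229 and the CD11c gate in Cre cells. Their summed level was 2603 ± 237 CPM at baseline, 2687 ± 84.2 in CD229-, 3094 ± 271 in CD229+ and 3609 ± 431 in CD11c+ cells. From baseline to CD229- cells 1 of 88 members rose, Cox6a2, and 0 fell (median 0.06, with 5.03% of all genes rising and 0.827% falling). The count was 4 without Cre baseline replicate 3 and 0 without baseline replicate 1 or CD229- replicate 2 or 3. PE150, a title tag of unstated meaning, is carried by CD229- replicates 2 and 3 and by no Cre baseline library. This step therefore partly joins that tag with diet and gate. In the CD229 step 16 rose and 0 fell (median 0.25; 10.7% rose and 6.54% fell), 8 of them among the 11 complex IV genes. Ndufa1 rose by 0.88 ± 0.22 (adjusted p = 0.00491) and Cox8a by 0.45 ± 0.11 (adjusted p = 0.00587). In the CD11c step 14 rose and 0 fell (median 0.25; 8.64% rose and 8.53% fell). With no filter both counts were 27, and single libraries moved them too. The first was 5 without CD229+ replicate 2 and 9 without CD229- replicate 1 or 3. The second was 4 without CD229+ replicate 3, 5 and 6 without CD11c+ replicates 1 and 2, and 32 without CD11c+ replicate 3. In the CD11c step the members at 6 weeks had positive medians and at 4 and 5 weeks negative ones; this difference between experiments was not tested. Across the 3 gates in order the astrocyte sum was 167 to 187, 131 to 157 and 117 to 137 CPM, the endothelial sum 92.2 to 94.3, 110 to 207 and 249 to 305, and the border macrophage sum 51 to 76.1, 111 to 292 and 30.4 to 165; their part was not tested.

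Egr2KO cells had 2523 ± 43.9 CPM at baseline (n = 2), 2915 ± 224 in CD229-, 3679 ± 215 in CD229+ and 4048 ± 188 in CD11c+ cells. In their CD229 step 38 members rose and 1, Ndufaf7, fell (median 0.34; 14.7% of all genes rose and 12.8% fell), and the count was 23 without CD229- replicate 1. In that step the astrocyte sum was 174 to 177 and then 118 to 133 CPM, the endothelial sum 103 to 107 and then 220 to 293, and the border macrophage sum 34.6 to 56.1 and then 87.4 to 153; their part was not tested. Complex IV had 8 of 11 rising (median 0.57) and complex III 7 of 9 (0.46). Uqcr11, a small complex III subunit, rose by 0.91 ± 0.23, Ndufa1 by 0.89 ± 0.22 and Cox6a1 by 0.59 ± 0.13. In the CD11c step 2 rose, Sdhb (0.30 ± 0.09, adjusted p = 0.0391) and Cox6a2, and 0 fell (5.44% and 6.25% of all genes); the count was 0 without CD11c+ replicate 1, 1 without replicate 3 of either gate and 4 without CD229+ replicate 2. Of 16 genes that rose with CD229 in Cre cells 12 (75%) rose in Egr2KO cells, 31.6% of the 38 there. The overlap over all genes was not taken, so this one cannot be read as particular to the set.

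Set against Cre cells of the same gate, Egr2KO CD229+ cells had 5 members higher and 0 lower (median 0.26; 1.42% of all genes rose and 1.05% fell). Cox8a had 73.1, 84.75 and 68.9 against 53.15, 59.9 and 48.4 CPM (0.49 ± 0.11, adjusted p = 0.0158). Uqcr11 had 22.2, 23.6 and 18.8 against 13.5, 12.9 and 10.1 CPM (0.83 ± 0.22, adjusted p = 0.0378). In both the genotypes did not overlap. Atp5mpl (0.56 ± 0.15, adjusted p = 0.0397), Ndufb5 (0.38 ± 0.10, adjusted p = 0.0461) and Uqcrh (0.49 ± 0.13, adjusted p = 0.0469) were the others. The count was 0 without Cre replicate 1 or 3 or Egr2KO replicate 2, and 2 and 1 without Egr2KO replicates 1 and 3. It was 12 with the PE150 tag in 2 of 3 titles of each gate as a covariate, 10 with DESeq2 and 20 with no filter. The endothelial sum was 220 to 293 CPM in Egr2KO and 110 to 207 in Cre CD229+ cells. Within it Flt1 was at 174 to 250 and 60.8 to 163 CPM. Ranges overlapped for Pecam1 (16.2 to 22.7 and 17.7 to 29.7) and Kdr (17.4 to 21.3 and 16.6 to 20.8). Those of Cdh5 overlapped too (3.56 to 4.24 and 2.86 to 5.29), and Cldn5 was at 0 in both. The monocyte sum (4 genes) was 10.9 to 15.4 in Egr2KO and 21.6 to 29.7 in Cre. The part of these markers was not tested.

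In no other gate did a member pass between Egr2KO and Cre. At baseline edgeR gave 0, with 1 at an unadjusted p under 0.05 and 0 with DESeq2 (0.152% of all genes rose and 0.0303% fell); there both Egr2KO libraries and no Cre library carry the PE150 tag, so that tag and the genotype cannot be told apart within baseline. In CD229- cells edgeR gave 0, with 12 at an unadjusted p under 0.05 (12 positive) and 0 with DESeq2 (0.144% and 0.0455%). In CD11c+ cells edgeR gave 0, with 15 at an unadjusted p under 0.05 (14 positive) and 0 with DESeq2 (0.121% and 0.129%). These shares of all genes are at the adjusted threshold and are no background for the unadjusted counts. The ungated cells at 5 weeks had summed levels of 3843 ± 130 CPM in Egr2KO and 3822 ± 255 in Cre (n = 2 each). There 0 members passed with edgeR, 4 at an unadjusted p under 0.05 (4 positive) and 0 with DESeq2. At the adjusted threshold 0.299% of all genes rose and 0.622% fell.

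The largest change of any member in the WT diet and CD229 steps was that of Cox6a2, the muscle and heart form of a complex IV subunit whose common form is Cox6a1. It was low in WT baseline cells (1.58, 0.97 and 2.88 CPM) and had 16.2, 14.45 and 30.2 in CD229- cells, 61.9, 61.9 and 69.95 in CD229+ cells and 26, 25.9 and 33.9 in CD11c+ cells. None of these groups overlapped the next in order, and the steps were 3.50 ± 0.33 (adjusted p = 5.1e-09), 1.67 ± 0.23 (adjusted p = 1.22e-06) and -1.18 ± 0.23 (adjusted p = 0.000331). On cuprizone Trem2KO cells had 3.63, 3.71, 1.52 and 3.33 CPM without CD229 and 12, 7.51, 12.3 and 11.1 with it. Both lay below every WT library on cuprizone (-2.72 ± 0.29, adjusted p = 4.7e-08 and -2.59 ± 0.23, adjusted p = 2.68e-10). The CD229 step of Trem2KO was 1.80 ± 0.29 (adjusted p = 2.61e-05), and its difference from the WT step did not pass (0.13 ± 0.37, adjusted p = 0.856).

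**Figure D4:**
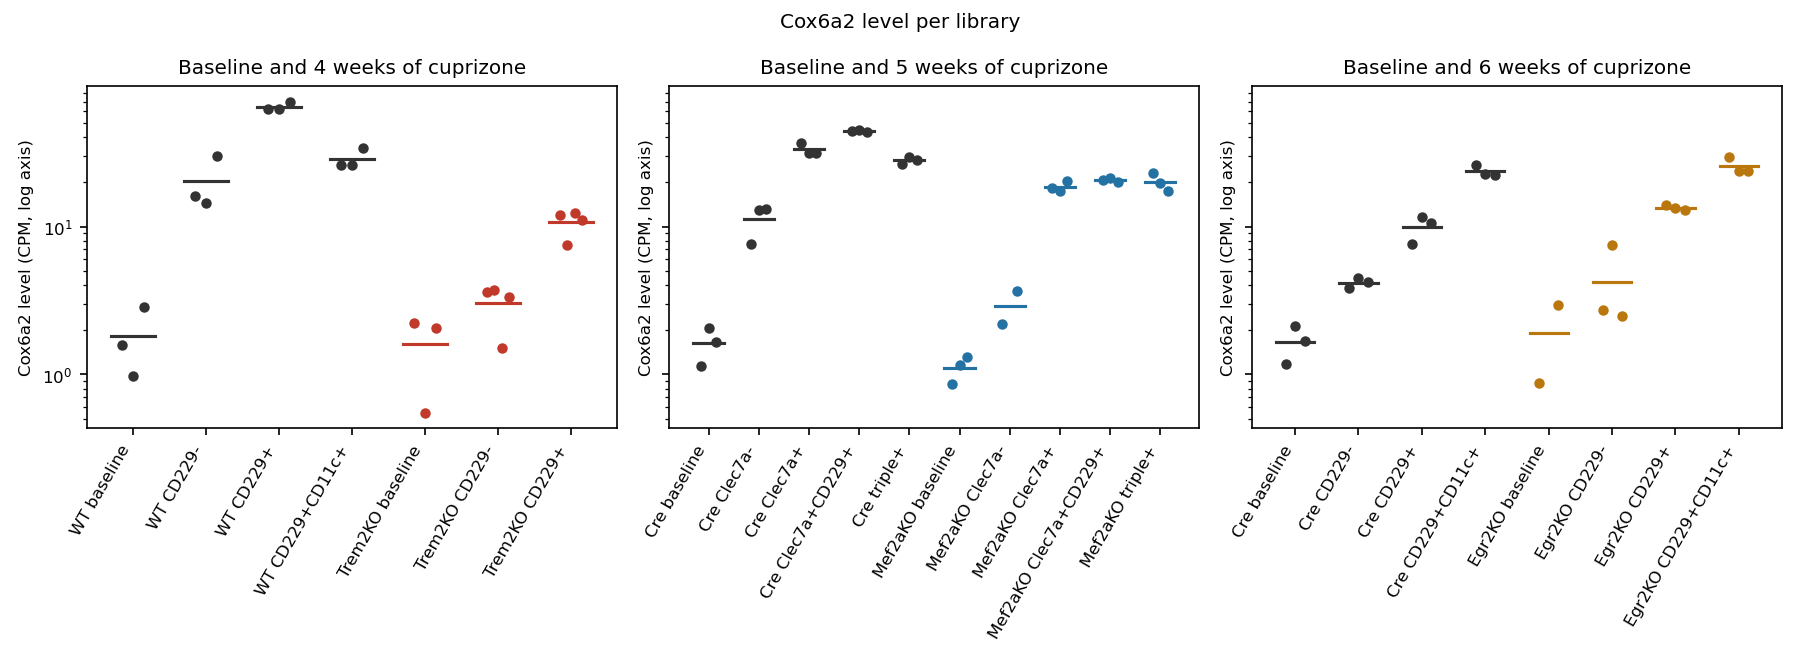
Level of Cox6a2 in CPM (y axis, log scale) in every library (points) by genotype, diet and gate (x axis), with group means as lines. It is highest in WT CD229+ cells at 61.9 to 69.9 CPM, and the libraries labelled Mef2aKO lie below Cre libraries in all 4 gates at 5 weeks.

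Cox6a2 was also the member that differed between Mef2aKO and Cre in each gate on cuprizone. Clec7a- cells had 2.21 and 3.64 CPM in Mef2aKO and 7.57, 13 and 13.2 in Cre (-1.93 ± 0.24, adjusted p = 7.59e-07). Clec7a+ cells had 18.1, 17.3 and 20.3 and 36.6, 31.4 and 31.65 (-0.84 ± 0.14, adjusted p = 0.000193). Double-positive cells had 20.8, 21.4 and 19.9 and 44.5, 45.3 and 43.4 (-1.10 ± 0.14, adjusted p = 1.28e-06). The genotypes overlapped in none of these gates, nor in triple-positive cells, where the call was the weakest (23.15, 19.6 and 17.3 against 26.6, 29.7 and 28.3; -0.50 ± 0.14, adjusted p = 0.0303; past the threshold in 5 of 11 other settings). Baseline levels were 0.86, 1.16 and 1.31 CPM in Mef2aKO and 1.14, 2.07 and 1.66 in Cre, which overlapped (-0.54 ± 0.34, adjusted p = 0.499). Cox6a1 passed between the genotypes in none of these gates. Border macrophage markers (5 genes) differed in the same direction, with sums of 7.37 to 10.2 CPM in Mef2aKO and 13.1 to 24.5 in Cre Clec7a- cells, 13.7 to 23.2 and 63 to 134 in Clec7a+, 20.2 to 26.4 and 61 to 83.4 in double-positive and 35 to 58 and 74.3 to 84.5 in triple-positive cells, and their part in the result was not tested. At 6 weeks Cox6a2 had 7.63, 11.5 and 10.5 CPM in Cre CD229+ cells and 25.95, 22.75 and 22.35 in CD11c+ cells. Its CD11c step there was a rise (1.24 ± 0.24, adjusted p = 0.000368 in Cre and 0.93 ± 0.24, adjusted p = 0.00904 in Egr2KO). No Cox6a2 promoter was in the sequences used here.

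Few of the 8 assembly factors, which build complex I and do not remain in it, passed in any step. In the WT CD229 step 0 rose and 1 fell (median 0.10), against 24.6% of all genes that rose and 24.2% that fell. Counts among 8 genes cannot be read as particular to them. The gene that fell was Ndufaf7, from 31.2, 27.75 and 33.2 CPM in CD229- to 23.5, 25.2 and 22.9 in CD229+ cells. These groups did not overlap (-0.37 ± 0.11, adjusted p = 0.00753). Ndufaf7 also fell in the Clec7a steps of Cre and Mef2aKO (-0.32) and in the Egr2KO CD229 step (-0.38), 4 of the 6 gate steps. The share of all genes that fell in as many steps was not taken. Ndufaf8 rose in the Mef2aKO Clec7a step (1.11 ± 0.36, adjusted p = 0.0122) and fell in CD229+ cells lacking Trem2 (-0.75 ± 0.26, adjusted p = 0.0179).

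Over those 6 gate steps (CD229 at 4 and 6 weeks and Clec7a at 5 weeks, in both genotypes of each experiment) 87 members were tested in all. A set of 10 (11.5%, against 5.92% of the 12571 genes tested in all steps) rose in all 6: Ndufa1 and Ndufb5 of complex I, Cox6a1, Cox6a2, Cox6b1, Cox6c, Cox7b and Cox8a of complex IV, and Atp5g3 and Atp5o of complex V. Another 16 rose in 5 (18.4% against 4.27% of all genes), 24 in 4 (27.6% against 5.21%) and 12 in 3 (13.8% against 5.33%). Those that rose in 2 were 5 (5.75% against 4.97%) and those in 1 were 5 (5.75% against 8.34%). The 15 that rose in none (17.2% against 66%) were Ndufaf1 to Ndufaf7, the complex I subunits Ndufa5, Ndufab1, Ndufb3, Ndufb4, Ndufs1 and Ndufv1, the testis form Cox6b2, and Atp5l. No gene of complex II or III is in the first of these sets. The CD229 steps at 5 weeks, given above, are not among the 6.

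Size of the fold change went with transcript length. The subunit transcripts in the tables are short, with a median of 745 bases (314 to 2905) against 2856 for the genes tested at 4 weeks and 2842 at 5 weeks. Across the 76 subunits tested at 4 weeks, Spearman's rho between length and fold change was -0.59 in the WT CD229 step (-0.21 over all 12647 genes) and 0.62 in Trem2KO against WT CD229+ cells (0.25). Across the 77 tested at 5 weeks it was -0.64 in the Cre Clec7a step (-0.19 over all 13204 genes). These are descriptions across genes of the same libraries, which are not independent.

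**Figure D5:**
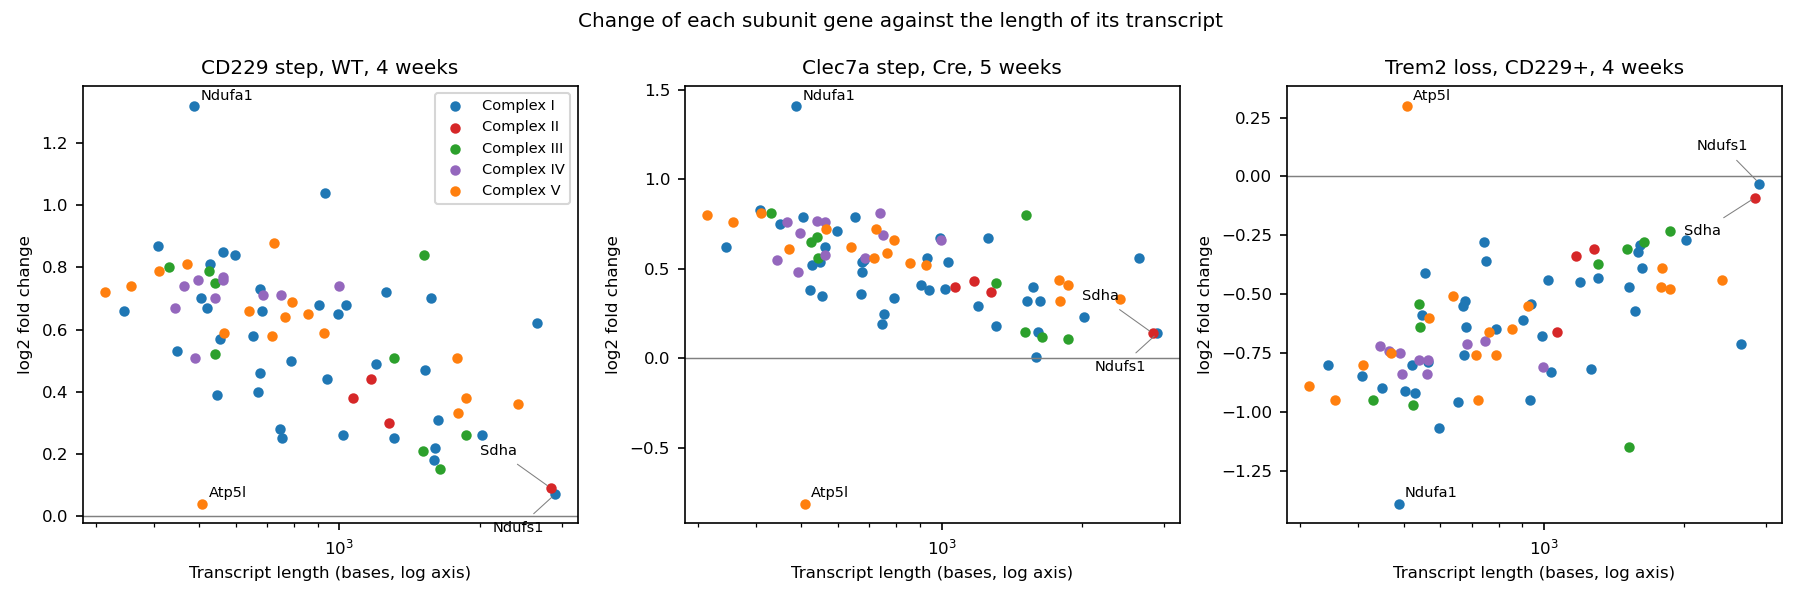
Log2 fold change of each tested subunit (points, coloured by complex) against transcript length in bases (x axis, log scale) in the WT CD229 step, the Cre Clec7a step and Trem2KO against WT CD229+ cells (panels from left to right). The short Ndufa1 transcript (488 bases) has the largest change in each, and the long Ndufs1 and Sdha lie near 0, while Atp5l, at 0.11 to 1.5 CPM, stands apart.

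Within a length class the members and all genes can be set side by side. Under 1000 bases 45 of 50 subunits (90%) rose in the WT CD229 step, against 38.5% of 1093 genes of that length. From 1000 to 2000 bases 19 of 21 (90.5%) rose against 29.2% of 2809 genes, and from 2000 bases 2 of 5 (40%) against 21.4% of 8745. In Trem2KO CD229+ cells 48 of 50 (96%), 21 of 21 and 2 of 5 fell, against 43.2%, 33.9% and 22.1%. The core and accessory subunits of complex I differ in length too, with median transcripts of 1596 and 676 bases. The part of length in the difference between core and accessory subunits, or between complexes, was not tested.

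Other genes of energy metabolism were counted in the same fits from lists set by name. In the WT CD229 step 13 of 15 glycolysis genes rose and 1 fell (median 0.87), and 10 of 12 electron carriers and ADP/ATP exchange genes rose (0.49). The citric acid cycle, which feeds complexes I and II, had 9 of 17 rising (0.22). Genes for mitochondrial ribosomal proteins had 31 of 78 rising and 2 falling (0.26), and those for cytosolic ribosomal proteins 79 of 80 rising (0.54). Assembly and import factors outside the name rule had 10 of 41 rising and 2 falling (0.12), and mitochondrial biogenesis regulators 1 of 19 rising and 5 falling (-0.13). Of all genes 24.6% rose and 24.2% fell in this step. The 10 of 41 that rose and the 5 of 19 that fell are near those shares.

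For CD229+ cells lacking Trem2 the comparison shares the WT CD229+ libraries with that step. Of glycolysis genes 13 of 15 fell (median -0.96), of carriers and exchange genes 11 of 12 (-0.53), of citric acid cycle genes 10 of 17 (-0.27), of mitochondrial ribosomal genes 40 of 78 with 3 rising (-0.37) and of cytosolic ribosomal genes 80 of 80 (-0.51). Assembly and import factors had 11 falling and 3 rising of 41 (-0.10), and biogenesis regulators 1 falling and 4 rising of 19 (0.14). Of all genes 26.5% fell and 26% rose in this comparison. The 11 of 41 that fell and the 4 of 19 that rose are near those shares. In the Cre Clec7a step 11 of 15 listed glycolysis genes rose (0.69), 8 of 13 carriers and exchange genes (0.42) and 7 of 17 citric acid cycle genes (0.15). Of 20 listed biogenesis regulators 1 rose and 1 fell (-0.11). Of all genes 20.9% rose and 17% fell there. The ribosomal, assembly and import lists are not given for this step.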

How the data were processed

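RNA-seq counts were analysed for 96 genes in 81 libraries of mouse microglia. Per the labels' protocols, brains were pooled by condition, dissociated and sorted, and polyadenylated RNA was sequenced; the titles name a dUTP method. The authors deposited raw read counts per gene, with 1 RefSeq transcript per gene, and these count tables were used as deposited. Upstream software, listed without roles in the submitters' processing notes, was HOMER 4.11, STAR 2.7.0f, fastp 0.20.0 and DESeq2, and the build was mm10/GRCm38. The counting step and its strand setting are not given in the sources used here. Deposited TPM tables were not used.

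WT and Trem2KO libraries of the 4-week experiment come from 2 tables, joined over 24910 genes with identical counts in the shared WT libraries; 214 were left out, among them Cox4i1. Counts were scaled by TMM after filterByExpr, and a quasi-likelihood model with a mean for every group was fitted per experiment (edgeR 4.0.16, R 4.3.3). Benjamini-Hochberg adjusted p under 0.05 over all genes tested (12647, 13204, 13187, 12628 and 12387 genes) was the threshold in 32 comparisons. CPM use TMM-scaled totals, and levels per kb divide by the length in the count tables. The 3 Cre baseline libraries serve 3 experiments, so those comparisons share controls.

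Named genes were, per comparison, the smallest adjusted p of each complex and direction and up to 6 further large changes without overlap and at a mean of at least 5 CPM, plus fixed catalytic subunits and isoform pairs. The core and length groupings and the other members were named after their values were seen. Members and lists were chosen with earlier results of these data known. The fits were tested on simulated data. The values of 1 member are not reported here.

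Pairing by replicate number was checked through the correlation of same-numbered libraries' deviations from group means. Every pair was over 0.1 only in the 6-week CD229 steps of Cre (0.17 to 0.29) and Egr2KO (0.12 to 0.18), a pairing that comes from the data and not from the labels. Alternatives were RLE scaling, total counts, no filter, DESeq2 1.42.0, a replicate block, the PE150 title tag (17 libraries, meaning not stated) as a covariate, each library left out and, chosen after seeing the data, each 4-week table alone.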

Additional observations from a re-analysis of the deposited data

Results flagged for a closer look

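The change from CD229- to CD229+ cells differed between Trem2KO and WT mice, by the interaction test in edgeR, for 5 of 87 members of the set, near the 5.77% of all genes with a lower step in Trem2KO. They were Sdhb of complex II (-0.46 ± 0.11, adjusted p = 0.00517), Ndufa9 (-0.38 ± 0.10, adjusted p = 0.00831) and Ndufa7 (-0.49 ± 0.15, adjusted p = 0.03) of complex I, and Atp5c1 (-0.32 ± 0.08, adjusted p = 0.00913) and Atp5a1 (-0.24 ± 0.08, adjusted p = 0.0317) of ATP synthase. In each the step was lower in Trem2KO. For Sdhb the step was 0.38 in WT and -0.07 in Trem2KO.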

How the results depend on the processing

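Of 176 refits with another scaling, filter, tool, block, covariate or table, 150 gave a count of members within 1.5 times that reported. Among the 26 beyond that, none with calls in both fits turned an excess of rises into one of falls or the reverse. For the 150 this was not compared. The members' median changed sign in 7 of all refits, each in a comparison whose reported median lay within 0.1 of 0. The rest were as follows. With a replicate block the counts were 13 (WT CD11c step), 11 (Trem2KO against WT CD229 step), 11 (Mef2aKO CD11c step) and 14 (Egr2KO against Cre, CD229+). In the 2 steps whose numbers pair, the block gave 23 for 16 (Cre) and 46 for 39 (Egr2KO) and changed no count there beyond 1.5 times. With no filter they were 2 (Trem2KO diet), 9 (Cre 5-week CD229 step), 7 (Cre 5-week CD11c step), 0 and 1 (Mef2aKO against Cre, baseline and double positive), 2, 27 and 27 (Cre 6-week diet, CD229 and CD11c steps), 6 (Egr2KO CD11c step) and 1 and 20 (Egr2KO against Cre, CD229- and CD229+). With total counts they were 3 (Trem2KO against WT CD229 step), 1 (Mef2aKO CD11c step), 1 and 1 (Mef2aKO against Cre, double and triple positive) and 1 and 1 (Egr2KO CD11c step; Egr2KO against Cre, CD229+). RLE scaling gave 9 for the Trem2KO against WT CD229 step. DESeq2 gave 11 there, 5 for the Cre 5-week CD229 step and 10 for Egr2KO against Cre CD229+ cells, where the PE150 covariate gave 12. The cause of these shifts was not tested. Scaling moved the median of all genes by at most 0.07.

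Leaving out each library in turn (84 fits) gave these lowest and highest counts. At 4 weeks they were 34 and 56 for the WT diet step, 1 and 10 for the WT CD11c step, 1 and 8 for the Trem2KO diet step, 16 and 36 for Trem2KO against WT CD229- cells, and 2 and 12 for the difference between CD229 steps. At 5 weeks they were 8 and 38 (Cre diet step), 1 and 3 (Cre CD229 step), 0 and 20 (Mef2aKO CD11c step), and, for Mef2aKO against Cre, 0 and 1 (baseline), 1 and 7 (Clec7a-), 1 and 2 (double positive) and 1 and 2 (triple positive). At 6 weeks they were 0 and 4 (Cre diet step), 5 and 24 (Cre CD229 step), 4 and 32 (Cre CD11c step), 23 and 54 (Egr2KO CD229 step), 0 and 4 (Egr2KO CD11c step) and 0 and 6 (Egr2KO against Cre CD229+ cells). A lone library left in a group of 2 is assumed to vary like the other groups. Of 3007 refits of 254 single-gene results, 2670 kept direction and call, 337 kept direction only, and 0 reversed.

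Limits are the pooled brains behind each library, baseline cells without the cuprizone gates, 2 to 4 libraries a group, a PE150 tag carried by some libraries of a group, and subunit levels read as RNA and not as protein or respiration. Genes at a few CPM, such as Atp5l, rest on few reads. Reads shared with near-identical gene copies were not tested.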
